A study of Mus musculus with 12 samples.

Results

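The haemangioblast and endothelial regulators are 10 genes through which mesoderm gives rise to blood and vessel cells: the receptors Kdr and Flt1, the transcription factors Etv2, Tal1, Lmo2, Fli1, Gata2 and Runx1, and the surface proteins Pecam1 and Cdh5. The genes were chosen by name, and each was read by its brightest probe set annotated to it alone. All 10 had exactly 1 such probe set, among 19938 genes on the array with a probe set of their own, and all 10 passed the filter on dim genes. Expression was measured on 12 arrays of embryoid bodies, aggregates in which mouse embryonic stem (ES) cells leave pluripotency. The parent cells of every group were A2lox (strain 129P2/OlaHsd), ES cells in which doxycycline (dox) can switch on a transgene; they were kept on irradiated fibroblast feeders that were subtracted before differentiation. In the knockdown line 0.5 µg/ml dox, given from day 0, induced microRNAs against the Geminin transcript, and 3 dox arrays and 3 arrays without dox were made on day 4. In the overexpression line dox from day 3 induced Geminin itself. That line gave 2 dox arrays and 2 arrays without dox on day 5 (replicates 1 and 2), and 1 of each on day 4 (replicate 3). Whether replicates came from separate cultures is not in the labels, so the p-values speak for the spread among these arrays, which may be technical.

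In the mouse embryo and in embryoid bodies, mesoderm leaving the primitive streak switches on Kdr, a receptor for vascular endothelial growth factor (VEGF). Cells with Kdr can form blood, endothelium or heart. The ETS-family factor Etv2 then drives the blood and vessel programme in a short pulse, with Tal1, Lmo2, Fli1 and Gata2 acting together downstream, Runx1 needed for blood to emerge from endothelium, and Pecam1 and Cdh5 at the junctions of the endothelium formed. Pecam1 is also present on undifferentiated mouse ES cells, and Gata2 and Flt1 are also active in trophoblast.

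RefSeq promoter windows (GRCm38.p6, 250 bases before to 50 after a gene's start) were held for 6 of the 10 members. Those of the VEGF receptors, of the ETS factor and of Gata2 are shown because these 4 genes, with a window held, lay lower on every array of the knockdown line than on the day 4 arrays of the overexpression line. Both receptors are known to respond to ETS factors. Capitals mark matches on either strand to the ETS core GGAAG, to the GATA motif AGATAA or to the E-box CAGNTG, which basic helix-loop-helix factors such as Tal1 can bind. The windows are chr5:75978406-75978705 for Kdr, chr5:147725962-147726261 for Flt1 and chr7:30635803-30636102 for Etv2 on the minus strand, and chr6:88193641-88193940 and chr6:88198414-88198713 for the 2 starts of Gata2 on the plus strand, all written 5′ to 3′.
Kdr: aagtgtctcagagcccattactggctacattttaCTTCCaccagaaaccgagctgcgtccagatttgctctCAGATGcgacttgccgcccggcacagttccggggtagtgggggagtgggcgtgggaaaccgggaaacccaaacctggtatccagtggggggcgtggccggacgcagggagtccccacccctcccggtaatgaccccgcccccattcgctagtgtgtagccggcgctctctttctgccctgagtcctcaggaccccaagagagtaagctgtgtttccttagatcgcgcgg
Flt1: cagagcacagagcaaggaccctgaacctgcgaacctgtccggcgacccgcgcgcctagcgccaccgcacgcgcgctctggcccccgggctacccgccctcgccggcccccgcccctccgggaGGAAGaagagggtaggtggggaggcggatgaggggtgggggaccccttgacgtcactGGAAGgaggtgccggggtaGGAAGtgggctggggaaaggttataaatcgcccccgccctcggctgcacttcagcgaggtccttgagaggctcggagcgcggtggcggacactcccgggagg
Etv2: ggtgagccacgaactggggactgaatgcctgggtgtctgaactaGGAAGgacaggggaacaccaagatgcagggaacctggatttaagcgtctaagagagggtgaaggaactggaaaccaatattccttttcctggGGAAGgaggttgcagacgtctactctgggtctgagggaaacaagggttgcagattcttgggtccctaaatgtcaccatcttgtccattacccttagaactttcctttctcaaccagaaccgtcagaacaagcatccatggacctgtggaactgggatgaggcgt
Gata2, first start: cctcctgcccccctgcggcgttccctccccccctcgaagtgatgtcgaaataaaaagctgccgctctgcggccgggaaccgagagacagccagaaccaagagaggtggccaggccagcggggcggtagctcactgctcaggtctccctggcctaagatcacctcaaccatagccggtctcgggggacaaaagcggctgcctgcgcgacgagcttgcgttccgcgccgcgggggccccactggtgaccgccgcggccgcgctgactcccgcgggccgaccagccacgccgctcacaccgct
Gata2, second start: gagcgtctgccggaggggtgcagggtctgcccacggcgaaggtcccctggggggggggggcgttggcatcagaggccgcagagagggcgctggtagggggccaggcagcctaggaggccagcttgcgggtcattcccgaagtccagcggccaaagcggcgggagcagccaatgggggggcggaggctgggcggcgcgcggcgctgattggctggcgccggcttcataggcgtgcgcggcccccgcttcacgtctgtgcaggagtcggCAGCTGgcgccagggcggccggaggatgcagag
The Kdr window held 1 ETS core, 216 bases before the start, and 1 E-box, 179 bases before it. The Flt1 window held 3 ETS cores, at 128, 71 and 52 bases before the start, and the Etv2 window 2, at 206 and 114 bases. Neither Gata2 window held an ETS core, and the second held 1 E-box, after the start. None of these 5 windows held the GATA motif. Of the other members with windows, Tal1 and Runx1 each had an ETS core in 1 of 2. Of 32544 distinct promoter windows, 71.3% held the ETS core, 51.5% the E-box and 11.2% the GATA motif, so a match to the ETS core was the usual state.

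Levels are log2 intensities after quantile normalization, and differences are on the same log2 scale. Array medians before that step lay between 145.3 and 182.2 on the linear scale. Gmnn, the Geminin gene, stood at 9.68 ± 0.06 with dox and 10.18 ± 0.14 without in the knockdown line (SD, n = 3 each). In the overexpression line it stood at 11.10 ± 0.38 with dox and 10.22 ± 0.10 without on day 5 (SD, n = 2 each), and at 11.04 and 10.35 on day 4. The ES cell factor Pou5f1 spanned 12.54 to 12.77 on the knockdown-line arrays and 11.96 to 12.64 on those of the overexpression line. Of the endothelial surface and effector genes 18 of 20 passed the filter on dim genes (log2 value 6.46, the 20th percentile of all genes), as did 7 of 9 primitive erythroid genes with a probe set. The sialomucin gene Emcn and Adgrl4 of the endothelial list, and the embryonic globin genes Hbb-bh1 and Hbb-y of the erythroid list, averaged below it and were not tested. Fewer cells of a type and less RNA per cell cannot be told apart in these bulk samples.

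**Figure D1:**
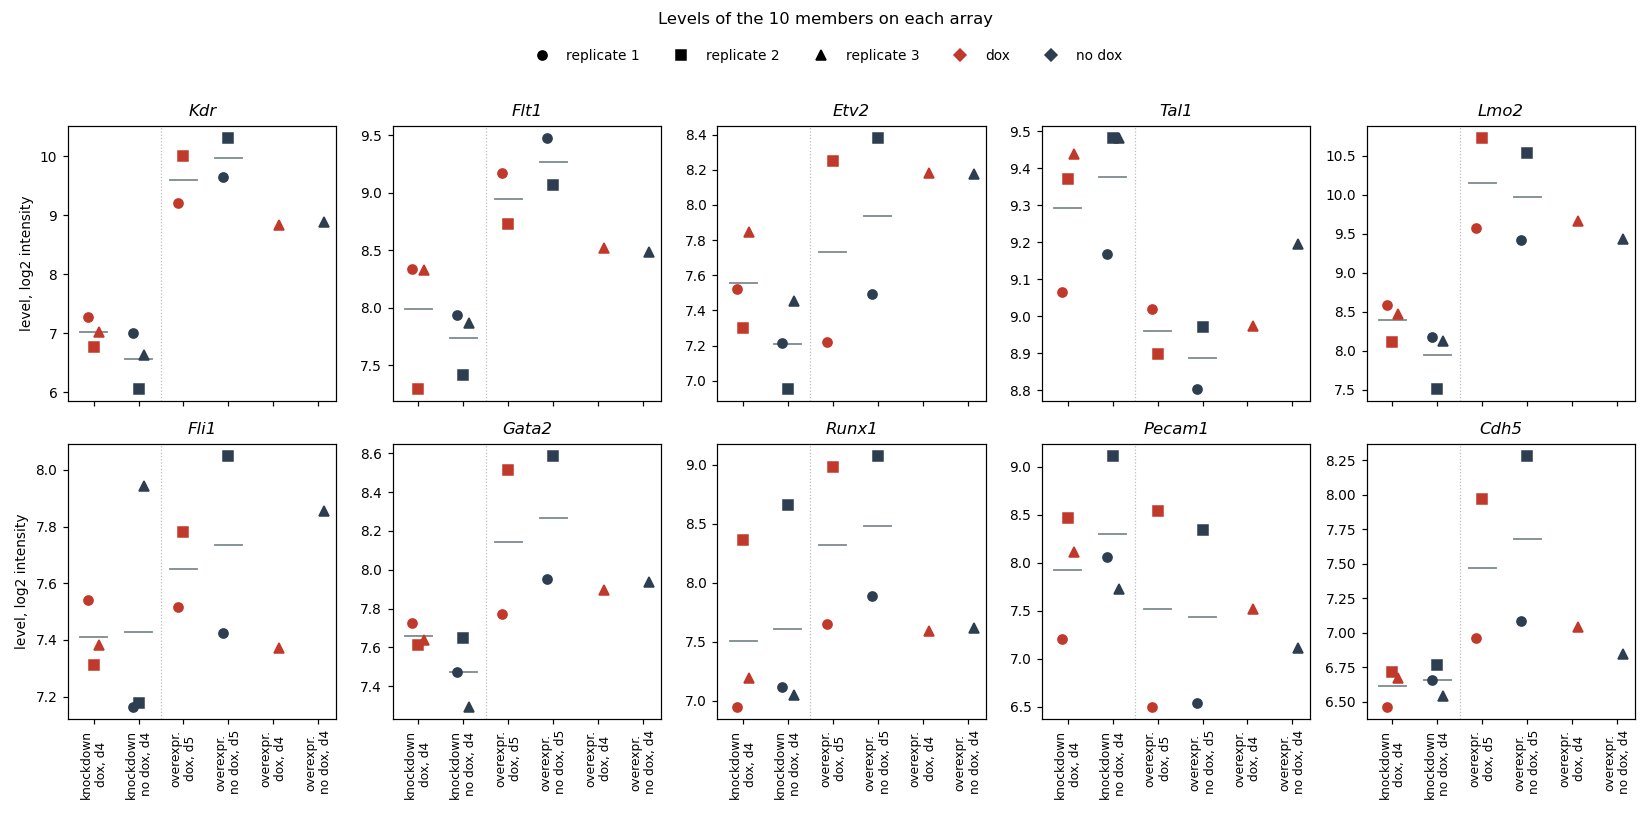
Levels of the 10 members (log2 intensity, vertical axes that start above 0 and differ between panels) on each array, by line, dox and day (d4, d5). Points are arrays with shape giving the replicate, grey lines are group means, and the dotted line separates the knockdown from the overexpression line; Kdr and Lmo2 stand apart between the lines, while Runx1 and Pecam1 stand apart between replicates.

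The widest separation among the members lay between the cell lines. On day 4 the fitted level of the VEGF receptor Kdr without dox was 5.4-fold lower in the knockdown line than in the overexpression line, and the LIM adaptor Lmo2, Etv2 and Flt1 were also lower there. Plain group means differed 5.02-fold without dox, 3.52-fold with dox and 4.2-fold over all day 4 arrays, in the same direction. This comparison was added after the members' levels had been seen. The Kdr level was 7.27, 6.76 and 7.02 in the knockdown line with dox (replicates 1 to 3) and 7.0, 6.06 and 6.63 without dox, the lowest of which lay under the filter value of 6.46. In the overexpression line it was 8.83 with dox and 8.89 without on day 4. No array of the knockdown line came within 1.5 log2 units of those of the overexpression line. The fitted log2 difference of Kdr, knockdown minus overexpression line without dox, was -2.43 ± 0.34 (SE; limma adjusted p = 0.0203). Of 10 members 1, Kdr, was called, against 0.307% of the 15950 genes tested (0.27% lower and 0.0376% higher), and 4 had an unadjusted p under 0.05, against 11.6%.

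Lmo2, a bridge between Tal1 and Gata factors, was at 8.59, 8.11 and 8.47 with dox and at 8.18, 7.51 and 8.12 without dox in the knockdown line. On day 4 of the overexpression line it was at 9.66 with dox and 9.43 without, so the lines did not overlap. Its fitted difference was -1.51 ± 0.41 (SE; limma adjusted p = 0.19). Etv2 was at 7.52, 7.30 and 7.85 with dox and at 7.21, 6.96 and 7.45 without in the knockdown line, against 8.18 and 8.17 with and without dox on day 4 of the overexpression line. Its fitted difference was -1.04 ± 0.35 (SE; limma adjusted p = 0.291). Flt1, a VEGF receptor that also acts as a decoy, spanned 7.30 to 8.34 over the 6 knockdown-line arrays and 8.49 to 8.52 over the 2 day 4 overexpression-line arrays, with a fitted difference of -0.87 ± 0.33 (SE; limma adjusted p = 0.356). In all, 6 members (Kdr, Flt1, Etv2, Lmo2, Gata2 and the endothelial cadherin Cdh5) lay lower on all 6 knockdown-line arrays than on both day 4 arrays of the other line, where 8.11% of all genes did; none lay higher, where 8.41% did. For each of these 6 members the exact two-sided permutation p was 0.0714, the smallest that 6 arrays against 2 allow. It holds only if the arrays are independent, which those of equal replicate number may not be. The factor Tal1 and Pecam1 had fitted differences above 0 (0.28 ± 0.16 and 1.08 ± 0.74 SE), Runx1 was at -0.05 ± 0.65 and Fli1 at -0.29 ± 0.27, and their arrays overlapped. Gata2, a zinc-finger factor of early blood cells, spanned 7.30 to 7.72 over the knockdown-line arrays, against 7.90 and 7.94 with and without dox on day 4 of the overexpression line (-0.49 ± 0.24 SE; limma adjusted p = 0.47). Cdh5 spanned 6.46 to 6.77 there, close to the filter value, against 7.04 and 6.85 (-0.33 ± 0.37 SE). Of the 10 fitted differences 2 were above 0, where 53.1% of all genes were, and their median was -0.41, against 0.02 over all genes tested.

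The overexpression line has a single replicate on day 4, so the line, the culture and the array run cannot be told apart. The call on Kdr was lost without the knockdown no-dox array of replicate 1 (-2.65, adjusted p = 0.053) or 2 (-2.18, adjusted p = 0.0548), without the day 4 overexpression array with dox (-2.33, adjusted p = 0.187) or without dox (-2.64, adjusted p = 0.818), and with the day 4 arrays alone (-2.33, adjusted p = 0.154), all by limma. Primitive streak and early mesoderm genes differed in the same direction as Kdr. All 11 of the 11 tested were lower in the knockdown line, 5 of them called, with a median of -1.58. The mean log2 level of that list was 7.78 to 8.70 with dox and 7.45 to 8.18 without in the knockdown line, against 9.55 and 9.62 with and without dox on day 4 of the overexpression line, with no overlap. Among these, the homeobox gene Evx1 was at -2.64 ± 0.41 (SE; limma adjusted p = 0.0321). Of the 11 lateral and cardiac mesoderm genes tested, 2 were called lower and 0 higher, the ligand gene Bmp2 at -1.69 ± 0.22 (SE; limma adjusted p = 0.0176) and the heart T-box factor Tbx20 at -1.56 ± 0.26 (SE; limma adjusted p = 0.0438). Of 20 other VEGF, Notch, apelin and BMP signalling genes tested, 6 were higher and 14 lower in the knockdown line (median -0.13). Of the 20, 8 had an unadjusted limma p under 0.05, and 1 was called lower and 0 higher. The called gene was Nrp1, the VEGF co-receptor neuropilin, at -1.58 ± 0.24 (SE; limma adjusted p = 0.0321). Of 24 further blood and endothelial transcription factors 15 were higher and 9 lower in the knockdown line (median 0.05), and of 18 endothelial surface and effector genes 12 were higher and 6 lower (median 0.22). Limma called 0 in either list, with 3 at an unadjusted p under 0.05 in each, so most of these genes did not share the direction of Kdr. Of 7 primitive erythroid genes 2 were higher and 5 lower (median -0.07), with 0 called and 1 at an unadjusted limma p under 0.05. The calls on Evx1, Bmp2, Tbx20 and Nrp1 were lost under 5 to 13 of the alternatives, in each case without either day 4 overexpression array. Of the 15 pluripotency genes, 12 were higher and 3 lower in the knockdown line (median 0.69) and 0 were called, with 5 at an unadjusted limma p under 0.05. Their mean log2 level was 9.96 to 10.55 with dox and 10.39 to 10.79 without in the knockdown line, against 9.98 and 9.90 on day 4 of the overexpression line. Of 14 visceral endoderm genes 11 were higher and 3 lower (median 0.43), among them the basement membrane genes Lama1 (1.93 ± 0.68) and Col4a1 (1.14 ± 0.54 SE), with 0 called and 3 at an unadjusted limma p under 0.05. Of 8 trophoblast genes 4 were higher (median -0.18) and of 6 feeder fibroblast genes 4 (median 0.12), with 0 called and 2 and 0 at an unadjusted limma p under 0.05. The part of these gene groups in the difference in Kdr was not tested.

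**Figure D2:**
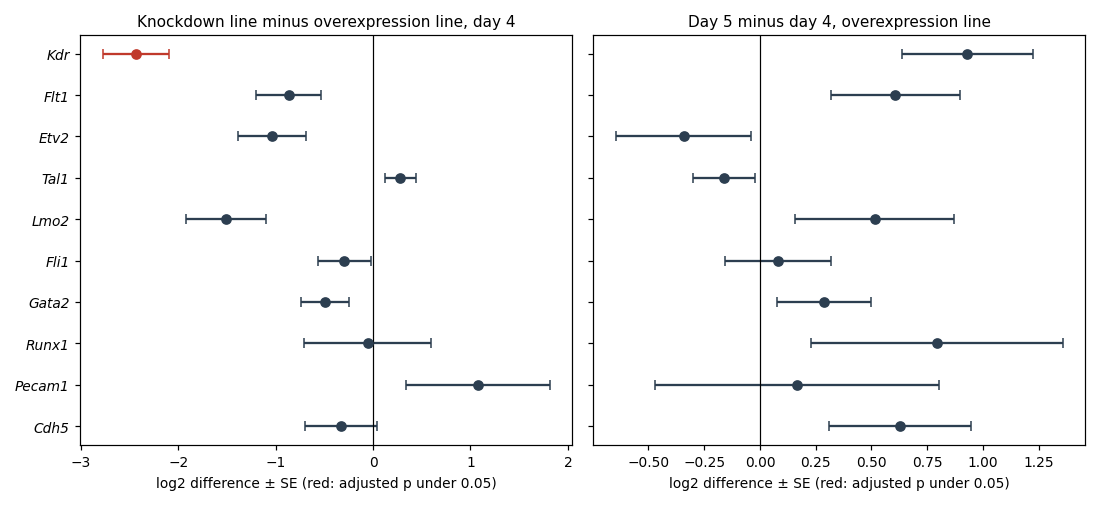
Fitted log2 differences of each member (points) with their SE from the model (bars), for the knockdown minus the overexpression line on day 4 (left) and for day 5 minus day 4 in the overexpression line (right). Red marks a limma adjusted p under 0.05, which Kdr at -2.43 alone has; on the right, Kdr at 0.93 lies farthest from 0.

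Day 5 was set against day 4 in the overexpression line to follow the members as the embryoid bodies aged. Kdr was 1.91-fold and Flt1 1.52-fold higher on day 5, and both were higher on all 4 day 5 arrays than on both day 4 arrays. Of the 10 members 8 had a fitted difference above 0, where 49.8% of all genes did, and 2, Etv2 and Tal1, were below 0. Limma called 0 of the 10, against 0.558% of all genes (63 higher and 26 lower), and 1 member, Kdr, had an unadjusted p under 0.05, against 14.2% of all genes. The members' median difference was 0.40, against 0.00 over all genes.

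Kdr was at 9.21 and 10.00 with dox and at 9.65 and 10.31 without dox on day 5 (replicates 1 and 2), against 8.83 and 8.89 on day 4. Its fitted difference was 0.93 ± 0.30 (SE; limma adjusted p = 0.184). Flt1 was at 9.17 and 8.73 with dox and at 9.47 and 9.07 without dox on day 5, against 8.52 and 8.49 on day 4, and differed by 0.61 ± 0.29 (SE; limma adjusted p = 0.376). Runx1 was the third member with no overlap, at 7.66, 8.98, 7.89 and 9.07 on day 5 against 7.59 and 7.62 on day 4, and differed by 0.79 ± 0.56 (SE; limma adjusted p = 0.588). These 3 members of 10 stood against 15.4% of all genes that lay higher on every day 5 array. For each of the 3 the exact two-sided permutation p was 0.133, the smallest that 4 arrays against 2 allow. That test took each array as independent, which arrays of equal replicate number may not be. Cdh5, the endothelial cadherin, was at 6.96, 7.97, 7.08 and 8.28 on day 5 and at 7.04 and 6.85 on day 4, and differed by 0.63 ± 0.32 (SE; limma adjusted p = 0.406). Lmo2 differed by 0.51 ± 0.36, Gata2 by 0.29 ± 0.21, Pecam1 by 0.17 ± 0.64, Fli1 by 0.08 ± 0.24, Tal1 by -0.16 ± 0.14 and Etv2 by -0.34 ± 0.30 (log2 ± SE), and each of these overlapped between days. Etv2 was at 7.22 and 8.25 with dox and at 7.49 and 8.38 without on day 5, which put replicate 1 below and replicate 2 above the day 4 arrays. Lmo2 was at 9.57 and 10.72 with dox and at 9.41 and 10.53 without on day 5, again with replicate 2 above day 4.

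The day difference depended on the replicate. On day 5, 8 of 10 members were higher in replicate 2 than in replicate 1 both with and without dox, where 39.3% of all genes were, and 1, Flt1, was lower in both, where 38.2% were. Without the replicate 2 arrays of day 5, an alternative added after the data were seen, Kdr differed by 0.57, Flt1 by 0.82, Runx1 by 0.17 and Cdh5 by 0.08. Lmo2 at -0.06, Gata2 at -0.05, Fli1 at -0.14 and Pecam1 at -0.79 then turned below 0, Etv2 was at -0.82, and 0 members were called, with 2 at an unadjusted limma p under 0.05. Without the replicate 1 arrays of day 5, Kdr differed by 1.29, Cdh5 by 1.18 and Gata2 by 0.63. With array weights 2 members were called, Kdr at 1.03 (limma adjusted p = 0.00597) and Cdh5 at 0.77 (limma adjusted p = 0.0276). That setting called 2567 of the 15950 genes tested, so these 2 calls do not set the members apart from other genes. Day 4 is replicate 3 alone in this line, so day and replicate cannot be told apart.

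Other genes of the pathway gave the following counts for day 5 against day 4. Of the 20 VEGF, Notch, apelin and BMP signalling genes tested, 14 were above 0 and 6 below, with a median of 0.29. Of the 20, 7 had an unadjusted limma p under 0.05, and 1 was called higher and 0 lower. The called gene was Nrp1, at 1.35 ± 0.21 (SE; limma adjusted p = 0.0346). The ligand genes Vegfa (1.71 ± 0.50), Bmp4 (1.19 ± 0.39) and Pgf (0.96 ± 0.19), a ligand of Flt1, were not called (limma adjusted p = 0.153, 0.198 and 0.0601). Of 24 further blood and endothelial transcription factors tested, 12 were above 0 and 12 below, with a median of 0.05. Among them 1 was called higher and 0 lower, the forkhead gene Foxc1 at 0.90 ± 0.12 (SE; limma adjusted p = 0.0212). Sox17, which marks endoderm as well as arterial endothelium, was at 1.79 ± 0.34, its relative Sox7 at 1.22 ± 0.69 and Ets1 at 0.63 ± 0.17 (SE; limma adjusted p = 0.0514, 0.466 and 0.123). Of the 18 endothelial surface and effector genes tested 13 were above 0 and 5 below (median 0.12); none was called by limma, and 1 had an unadjusted p under 0.05. The receptor genes Calcrl (0.68 ± 0.34) and S1pr1 (0.51 ± 0.34) had the largest differences in that list. Of the 7 primitive erythroid genes tested 2 were above 0 and 5 below (median -0.05), and 0 were called, 1 with an unadjusted limma p under 0.05, and the embryonic globin gene Hba-x was at -0.41 ± 0.30 and Hemgn at 0.33 ± 0.12 (SE).

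Lateral and cardiac mesoderm genes had 10 of 11 tested members above 0 and a median of 0.74, with 2 called higher, Tbx20 at 1.24 ± 0.22 and Bmp2 at 1.05 ± 0.19 (SE; limma adjusted p = 0.0457 and 0.0433). Visceral endoderm genes had 12 of 14 above 0 and a median of 0.71, and 0 were called, with 4 at an unadjusted limma p under 0.05. The mean log2 level of the visceral endoderm list was 8.65 to 8.86 over the day 5 arrays, against 8.06 and 8.05 on day 4, and that of the lateral and cardiac mesoderm list 8.45 to 9.03 on day 5, against 7.99 and 8.12. Trophoblast genes had 6 of 8 above 0 (median 0.46) and feeder fibroblast genes 4 of 6 (median 0.39), with 0 called and 2 at an unadjusted limma p under 0.05 in each list. Of 15 pluripotency genes 1 was called lower, Pou5f1 at -0.59 ± 0.10 (SE; limma adjusted p = 0.0383), and 9 were above 0. The part of these other cell types in the day difference of the members was not tested. The calls on Nrp1, Foxc1, Tbx20, Bmp2 and Pou5f1 were each lost under 9 to 15 of the alternatives, among them leaving out either day 4 array, either day 5 array without dox, or the day 5 dox array of replicate 2.

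Pecam1 and Runx1 differed most between replicates. Pecam1, an adhesion protein of endothelium and of ES cells, was at 6.50 and 8.54 with dox and at 6.54 and 8.34 without dox on day 5 (replicates 1 and 2). In the knockdown line it was at 7.20, 8.46 and 8.11 with dox and at 8.06, 9.11 and 7.73 without (replicates 1 to 3). Replicate 2 was the highest of its group in all 4 of these groups. Runx1 was at 6.95, 8.37 and 7.20 with dox and at 7.12, 8.66 and 7.05 without dox in the knockdown line, so replicate 2 stood 1.17 to 1.60 above the others there. On day 5 it stood 1.32 above replicate 1 with dox and 1.19 without. Labels give no batch beyond the replicate number.

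The pluripotency level of an array, the mean log2 level of the 15 listed genes, tracked Pecam1. Pearson's r was 0.95 and Spearman's rho 0.96 over 12 arrays, 0.91 without the 2 arrays farthest from the median pluripotency level, 0.89 within the knockdown line and 0.96 within the overexpression line (6 arrays each). Arrays share groups and replicate numbers and are not independent, so these values are a description with no p. The single pluripotency genes with the highest r to Pecam1 were Sox2 (0.96), Fbxo15 (0.96) and Esrrb (0.92). Not all of the list tracked it: Nanog was at 0.20, Pou5f1 at 0.12, Klf4 at -0.38 and Tdgf1 at -0.54. The median r over the 15 genes was 0.65. For Lmo2, r was -0.95 within the knockdown line and 0.98 within the overexpression line. For Kdr these values were -0.87 and 0.68, and for Etv2 -0.81 and 0.69. For Runx1 they were 0.79 and 0.90, and for Cdh5 0.82 and 0.90, both above 0 in each line. Cdh5 spanned only 6.46 to 6.77 in the knockdown line, close to the filter value. For Gata2 the values were -0.23 and 0.92, for Fli1 -0.42 and 0.66, for Tal1 0.57 and -0.12, and for Flt1 -0.88 and -0.28. The difference in r between the lines was not tested.

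**Figure D3:**
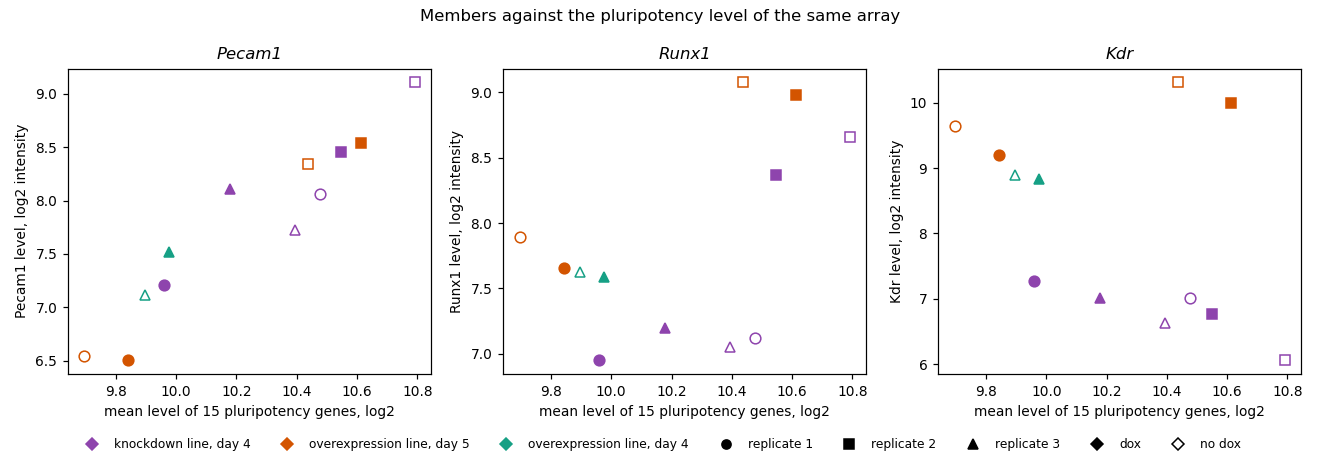
Levels of Pecam1, Runx1 and Kdr (vertical axes, log2 intensity, not starting at 0) against the mean log2 level of 15 pluripotency genes on the same array (horizontal axis). Colour gives line and day, shape the replicate, filled points dox and open points no dox; Pecam1 follows the pluripotency level over all 12 arrays (r = 0.95), while Kdr separates by line.

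Among themselves the members formed no single pattern over the 12 arrays. Kdr and Lmo2 were the most alike (r = 0.97), followed by Gata2 and Cdh5 (0.94). After removing the mean of each line and day, Etv2 and Lmo2 were at r = 0.90, Runx1 and Pecam1 at 0.89, Pecam1 and Cdh5 at 0.88, and Kdr and Etv2 at 0.82, whereas Flt1 and Runx1 were at -0.82. Tal1, a basic helix-loop-helix factor needed for all blood, ran against Kdr (r = -0.86). Its level moved over a narrow span, from 9.07 to 9.48 in the knockdown line and from 8.80 to 9.20 in the overexpression line. Over all tested genes, those most like Kdr were Pmp22, a myelin protein, the Wnt amplifier Rspo3, Gata3, Tbx20 and the ligand gene Wnt5a (r from 0.99 to 0.98). Those most like Etv2 were Fbxl14, Sash1, the histone demethylase Kdm6b, the kinase gene Hipk1 and Lrrc58 (0.95 to 0.93). Those most like Pecam1 were the Mediator subunit Med13l, Mcf2, Trap1a, the cytidine deaminase Apobec1 and Bicral (0.99 to 0.97). All of these r are over 12 arrays that differ by line and replicate, and carry no p.

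Dox against no dox in the knockdown line sets arrays with dox, where Geminin was lowered, against arrays without. No line lacking a Geminin transgene or microRNA was given dox, so dox itself and the change in Geminin cannot be told apart. Kdr was higher with dox by 0.45 ± 0.28 (1.37-fold), Lmo2 by 0.45 ± 0.34 (1.37-fold) and Etv2 by 0.35 ± 0.29 (1.27-fold; log2 ± SE), and none was called (limma adjusted p = 0.965 for each). In arrays of equal replicate number, dox minus no dox was 0.26, 0.70 and 0.39 for Kdr, 0.41, 0.59 and 0.35 for Lmo2, and 0.31, 0.34 and 0.39 for Etv2. These 3 of 10 members were higher with dox in all 3 such pairs, where 19.5% of all genes were. Tal1 was lower in all 3, at -0.10, -0.11 and -0.04, where 12.2% of all genes were. The groups themselves overlapped for each of the 10 members, where 4.97% of all genes lay higher and 3.25% lower without overlap, and the exact two-sided permutation p was 0.2 for Kdr and for Etv2 and 0.3 for Lmo2, with 0.1 the smallest that 3 arrays against 3 allow.

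The other members were spread about 0 in the knockdown line. Flt1 differed by 0.25 ± 0.27, Gata2 by 0.19 ± 0.20, Fli1 by -0.02 ± 0.22, Cdh5 by -0.04 ± 0.30, Runx1 by -0.11 ± 0.53 and Pecam1 by -0.37 ± 0.60 (log2 ± SE). Limma called 0 of the 10 members, with 0 at an unadjusted p under 0.05, against 0.00627% of all genes called and 3.76% at that unadjusted p. It called 0 genes lower, so Gmnn itself, at -0.67, -0.40 and -0.42 in the 3 pairs, was not called. The lack of calls on the members thus cannot show that dox left them unchanged. Of the 10 fitted differences 5 were above 0, where 52.7% of all genes were. The 95% interval of Pecam1 ran from -1.70 to 0.96 and that of Kdr from -0.17 to 1.07. Beside these values, 10 of 11 early mesoderm genes were above 0 (median 0.45) and 13 of 15 pluripotency genes below 0 (median -0.34), with 0 called in either list and 1 and 2 at an unadjusted limma p under 0.05. Of 14 visceral endoderm genes 13 were below 0 (median -0.34) and of 18 endothelial surface genes 13 (median -0.12), with 0 called and 0 and 1 at an unadjusted limma p under 0.05. Their part in the members' values was not tested.

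Dox against no dox in the overexpression line sets arrays with dox, where Geminin was raised, against arrays without, and has the same limit. Kdr was at 9.21, 10.00 and 8.83 with dox against 9.65, 10.31 and 8.89 without (replicates 1, 2 and 3, the last on day 4). The differences were -0.44, -0.31 and -0.06, and the fitted value was -0.27 ± 0.28 (SE; limma adjusted p = 1.0). Gata2 (-0.18, -0.07 and -0.04) and Runx1 (-0.23, -0.09 and -0.03) were also lower with dox in all 3 pairs, a total of 3 of 10 members where 10.5% of all genes were. Lmo2 was higher in all 3 (0.15, 0.19 and 0.23; fitted 0.19 ± 0.34), where 16.6% of all genes were. Over the members 2 fitted differences were above 0, where 56.7% of all genes were, and 8 below, with a median of -0.11 against 0.01 over all genes. Limma called 0 of the 10, with 0 at an unadjusted p under 0.05, against 0.00627% of all genes called and 0.934% at that unadjusted p. Only 1 gene was called, and it need not be Gmnn. In the 3 pairs Gmnn was higher with dox by 1.08, 0.68 and 0.69, and the gene Hprt by 3.74, 2.92 and 3.66. The 95% interval of Kdr ran from -0.89 to 0.35, so the lack of calls cannot show that dox left the members unchanged. Beside these values, 13 of 15 pluripotency genes were above 0 (median 0.125) and 9 of 11 lateral and cardiac mesoderm genes below 0 (median -0.10), with 0 called and 0 at an unadjusted limma p under 0.05 in either list. The mean log2 level of the pluripotency list was 9.84 and 10.61 with dox against 9.70 and 10.44 without on day 5, and 9.98 against 9.90 on day 4. The part of both lists in the members' values was not tested.

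**Figure D4:**
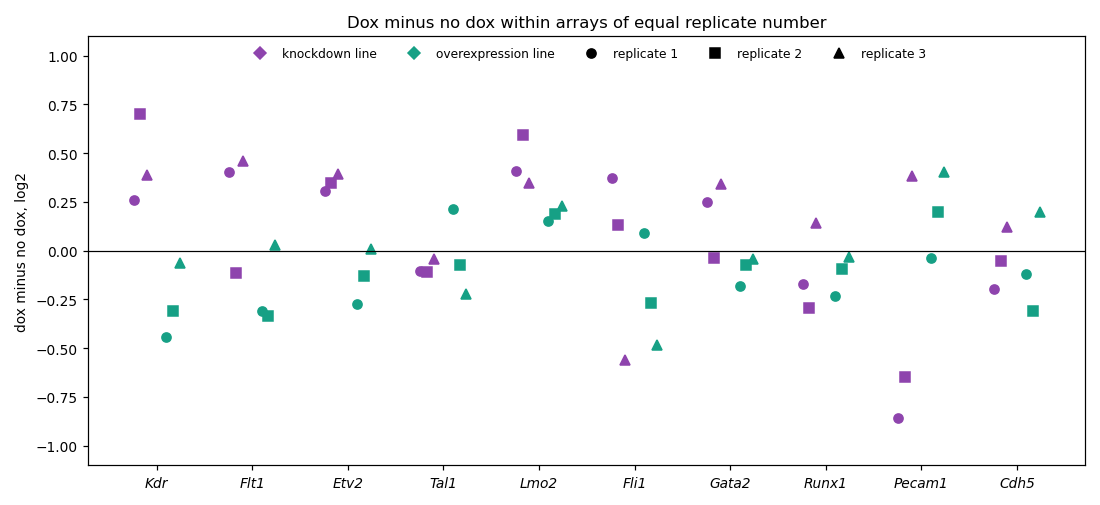
Dox minus no dox (log2, vertical axis) for each member within arrays of equal replicate number, in the knockdown line (purple) and the overexpression line (green; replicate 3 is day 4). Kdr lies above 0 in all 3 knockdown pairs and below 0 in all 3 overexpression pairs, and Lmo2 lies above 0 in all 6.

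The dox effects of the lines were set against each other by subtracting the overexpression from the knockdown effect. Kdr was higher with dox in all 3 knockdown pairs and lower in all 3 overexpression pairs, 1 of 10 members where 2.39% of all genes were. Kdr differed by 0.72 ± 0.39 (95% interval -0.15 to 1.59), Etv2 by 0.48 ± 0.41, Flt1 by 0.45 ± 0.39, Gata2 by 0.28 ± 0.28 and Lmo2 by 0.26 ± 0.48, and Pecam1 by -0.56 ± 0.85 (log2 ± SE). Limma called 0 of the 10 members, with 0 at an unadjusted p under 0.05, and 0 of all genes (0%), with 2.13% at that unadjusted p. Of the 10 differences 8 were above 0, where 50.1% of all genes were, with a median of 0.23. The lines also differ in the start of dox, in the collection day and, as above, in the level of Kdr without dox.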

How the data were processed

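Biotin-labelled sense-strand targets made from total RNA of 12 samples were hybridised to Affymetrix whole-transcript arrays (labels' protocols). The authors deposited a linear intensity for each of 35512 probe sets on each array, with array means of 677.3 to 696.6. How background, summarisation and scaling were handled is not given in the sources used here. From these, log2(intensity + 1) was taken and quantile normalized, because array medians spanned 7.193 to 7.517 on the log2 scale. A single gene was annotated to 21789 of the probe sets, and the one with the highest mean stood for its gene. Genes whose mean was below the 20th percentile were left out, which left 15950.

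Limma 3.58.1 in R 4.3.3 was fitted to all 12 arrays, with 3 baselines (knockdown day 4, overexpression day 4 and day 5), a dox effect for either line and no replicate block (7 residual and 3.5 prior degrees of freedom), and Benjamini-Hochberg adjustment over the 15950 genes; an adjusted p under 0.05 was called. Single members had exact permutation tests (scipy 1.17.1), which took every array as independent. Precision is set by how few arrays each group has. The members, gene lists and comparisons were chosen with earlier results of these data known. Genes named beside the members are among the 4 of each list with the largest day difference or its called genes, and the 5 most correlated with Kdr, Etv2 and Pecam1. Emcn, Adgrl4, Hbb-bh1, Hbb-y, Sox2, Fbxo15, Nanog, Klf4 and Tdgf1 fall outside that rule and were named after their values were seen. Sox17, Sox7, Gata4 and Gata6 stand in both the endoderm and a mesoderm or vessel list. Brachyury (T), Hba-a1, Ahsp and Prl3d1 were listed but are not analysed here. Of the 12 primitive erythroid genes listed 9 had a probe set of their own, so Hba-a1 and Ahsp were not the only ones left out. The fit was tested on simulated data with independent noise on each array and no replicate effect. In the day and dox comparisons it called 21 to 23 of 50 genes changed 1.5-fold, and 36 to 44 of 50 changed 2-fold. Each simulation also held 50 genes changed 4-fold and 50 changed 8-fold, which eases the adjusted p of the others. The dox comparisons of the real data called 1 gene each, so these rates may be too high for them. Arrays that share a replicate effect, as these may, were not simulated. Alternatives covered the normalization, pseudocount, dim-gene filter, choice of probe set, array weights, a variance trend, a replicate block, subsets of the arrays and each array left out in turn; the line comparison and the subsets without a day 5 replicate were added after the data were seen.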

Additional observations from a re-analysis of the deposited data

Results flagged for a closer look

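Kdr met the rule for an effect that runs opposite ways in the 2 cell lines: dox minus no dox was above 0 in all 3 equal-numbered pairs of the knockdown line (0.26, 0.70 and 0.39) and below 0 in all 3 pairs of the overexpression line (-0.44, -0.31 and -0.06). Of all genes tested, 2.39% had this pattern. The difference between the dox effects, 0.72 ± 0.39 (SE), was not called by limma (adjusted p = 1.0; unadjusted p = 0.0957). No group holds the 4 arrays that a check for single outlying arrays needs.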

How the results depend on the processing

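The day and dox comparisons, with the difference of the dox effects, called 0 members under every alternative run, except that array weights and leaving out both day 5 arrays of replicate 1 each called 2 members for day. For the line comparison array weights called 3 members, the day 4 arrays alone called 0 (4 at an unadjusted limma p under 0.05), and leaving out 1 array called 0 to 1. Genes called for day numbered 89, and 33 with array medians set equal, 27 with no filter, 2567 with array weights, 178 with a variance trend, 19 with the overexpression line alone, 424 with the day 4 arrays of both lines, 0 with no-dox arrays alone (944 at an unadjusted limma p under 0.05), 3 without the second and 350 without the first day 5 replicate, and 0 to 148 without 1 array. The 0 came without the no-dox day 5 array of replicate 1 or either day 4 array, and the 148 without the knockdown no-dox array of replicate 2. Dox in the knockdown line called 1 gene, and 0 with that line alone (433 at an unadjusted limma p under 0.05). Dox in the overexpression line called 1, and 201 with array weights, 0 with that line alone (188 unadjusted by limma), 0 with day 5 alone (84 unadjusted by limma) and 0 to 1 without 1 array. The line comparison called 49 genes, and 30 with no quantile normalization, 29 with no filter, 1170 with array weights, 0 with day 4 arrays alone (1047 unadjusted by limma) and 0 to 80 without 1 array.

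With a replicate block within each line no member was called. In the knockdown line 3 members then had an unadjusted limma p under 0.05, Kdr (0.00397), Lmo2 (3.18e-04) and Etv2 (0.00186), with limma adjusted p of 0.279, 0.159 and 0.242. In the overexpression line there were 2, Kdr (0.0389) and Lmo2 (0.0279), and for the difference of the dox effects 4, Kdr at 0.72 (0.00201), Flt1, Etv2 and Lmo2. Genes called stayed at 1, 1 and 0, with 1941, 572 and 1384 at an unadjusted limma p under 0.05. Deviations from group means of equal-numbered arrays correlated at 0.60, 0.44 and 0.05 in the knockdown line and at 0.79 on day 5. The labels do not say what equal numbers share, so the main fit did not pair the arrays. Its SEs of the dox effects therefore include the spread between replicates. In the knockdown line each array did correlate best with the array of its own number, a hint from the data and not from the design.

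Signs turned as follows, and the cause was not tested. For day: Etv2 (0.18) and Pecam1 (-0.37) with day 4 arrays of both lines, Fli1 (-0.12) with no-dox arrays, Lmo2 (-0.0554), Fli1 (-0.14), Gata2 (-0.0548), Pecam1 (-0.79) and S1pr1 (-0.0133) without the second day 5 replicate, and Etv2 (0.14) without the first. For dox: Tal1 (0.0046) with medians set equal and Fli1 (0.0585) with array weights in the knockdown line, Cdh5 with array weights (0.14) and Tal1 with day 5 alone (0.0721) in the overexpression line. For the difference: Runx1 (-0.13) and Cdh5 (-0.0577) with no quantile normalization, Tal1 (0.0338) with medians set equal, Tal1 (0.16), Runx1 (-0.0033) and Cdh5 (-0.18) with array weights. For the line: Runx1 (0.0384) with no quantile normalization. Without 1 array, the day difference ran from -0.12 to 0.28 for Fli1 and -0.25 to 0.62 for Pecam1. Dox in the knockdown line ran from -0.10 to 0.0336 for Cdh5, -0.15 to 0.24 for Fli1, -0.66 to 0.0304 for Pecam1, -0.54 to 0.42 for Runx1 and -0.19 to 0.0274 for Tal1. Dox in the overexpression line ran from -0.38 to 0.30 for Cdh5, -0.41 to 0.18 for Etv2, -0.30 to 0.12 for Gata2, -0.13 to 0.53 for Lmo2, -0.36 to 0.80 for Pecam1, -0.49 to 0.27 for Runx1 and -0.10 to 0.0721 for Tal1. The difference ran from -0.35 to 0.34 for Cdh5, -0.0772 to 0.58 for Lmo2, -0.42 to 0.54 for Runx1 and -0.16 to 0.053 for Tal1, and the line comparison from -0.58 to 0.22 for Runx1.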
